A study of Mus musculus with 73 samples.

Results

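Rb1 and Rbl1 are the 2 retinoblastoma family genes that carried a feature on the 2-colour cDNA microarrays of this series, out of 6790 genes measured in at least 1 array set. They were taken by symbol from the probe annotation: each had 1 feature, Rb1 with gene ID 19645 on mouse chromosome 14 and Rbl1 with gene ID 19650 on chromosome 2. The family's other gene, Rbl2, was not analysed here. Both members had a value on all 35 arrays that set a tissue (Cy3) against a universal mouse reference RNA (Cy5). They had a value on 37 of the 38 arrays that set a mammary tumor (Cy5) directly against normal mammary gland (Cy3): Rb1 lacked one on array 1 of the Brca1 model and Rbl1 on array 1 of the C3(1) model. All values are ratios of sample over reference RNA, or of tumor over normal gland, read as log2. This base and direction are not given in the labels and were checked on the values. They order one gene's level across tissues and do not compare the level of Rb1 with that of Rbl1.

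The reference arrays covered 4 sites. Wild-type C57BL/6 mice gave 4 normal prostate and 4 normal seminal vesicle arrays, and PB/SV40 T/t-antigen (TRAMP) mice of that strain, with the viral antigens under the probasin promoter, gave 5 prostate tumor and 6 seminal vesicle tumor arrays. Wild-type FVB mice gave 4 normal mammary gland and 4 normal lung arrays. Their tumors were 4 mammary arrays of C3(1)/SV40 T/t-antigen mice and 4 lung arrays of CC10/SV40 T/t-antigen mice, each named for the promoter in front of the antigens.

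The direct arrays covered 8 mammary models, each set against wild-type gland of the same strain. These were p53-/- transplants (Balb/c, n = 5), p53fp/fp;WAP-cre (C57BL6/129sv, n = 4) and Brca1 Co/Co;MMTV-cre;p53 (C57BL6/129sv, n = 5), in which the whey acidic protein or mouse mammary tumor virus promoter drives the recombinase. The FVB models carried C3(1)/SV40 T/t-antigen or 1 of 4 oncogenes behind the mouse mammary tumor virus promoter, called MMTV-PyMT, MMTV-ras, MMTV-her2/neu and MMTV-myc. MMTV-myc had 4 arrays and the other FVB models 5 each. Ages, and whether arrays of a group came from separate animals, are not given in the sources used here, so p-values measure the spread between these samples, which may be technical. A direct model was tested against 0, which leaves out the spread of the normal gland. Dyes were not swapped, so a dye effect of a gene cannot be told apart from its tumor change on these arrays. Strain cannot be told apart from the site pairs, nor from the p53 and Brca1 models against the FVB models.

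The retinoblastoma protein, encoded by Rb1, and p107, encoded by Rbl1, are pocket proteins that bind E2F transcription factors and hold back genes needed for DNA replication until cyclin-dependent kinases phosphorylate them. The retinoblastoma protein is a tumor suppressor that mainly binds the activating E2F proteins, whereas p107 mainly binds repressive ones and joins the DREAM complex. The SV40 large T antigen binds pocket proteins through their shared pocket and releases E2F, and Rbl1 is itself known as an E2F target gene.

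The Rbl1 promoter is shown because the gene is known as an E2F target. Rb1 was not in the promoter table used here. The 250 bases before the annotated start of Rbl1 in RefSeq (GRCm38.p6, chr2:157204535-157204784, minus strand) read as follows, with the match to an E2F-type motif in capitals.
Rbl1: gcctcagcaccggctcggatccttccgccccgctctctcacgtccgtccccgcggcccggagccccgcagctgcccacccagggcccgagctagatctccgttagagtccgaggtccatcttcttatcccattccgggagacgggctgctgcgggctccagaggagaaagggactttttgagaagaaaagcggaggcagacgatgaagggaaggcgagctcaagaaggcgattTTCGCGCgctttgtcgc
The search covered the motif TTCCCGC, the motif TTCGCGC, the motif TTGCCGC and the motif TTGGCGC, on both strands, and no match overlapped another in this window. The single match, on the strand shown, lay at positions -17 to -11 from the start. Of 27025 genes with a window of 250 bases in the same table, 9.01% held at least 1 such match, and of 34 E2F target genes with a window 15 did (44.12%). Counted over all 32851 windows, the share was 7.89%. A match is a description of letters and not a measured binding site.

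The levels of both genes differed among tissues, in different orders. Rb1 was lowest in seminal vesicle and highest in mammary gland and in prostate tumors, whereas the mean of Rbl1 was lower in each of the 4 normal groups than in each of the 4 tumor groups. Among the 4 normal tissues, the mean log2 ratio of Rb1 was -0.50 ± 0.07 (SD, n = 4) in seminal vesicle, -0.07 ± 0.14 in prostate, 0.35 ± 0.29 in lung and 0.79 ± 0.22 in mammary gland. The seminal vesicle arrays lay below all arrays of the other 3 normal tissues, while the ranges of lung and prostate overlapped, as did those of lung and mammary gland. Here and below, the share of all genes with groups so separated is not given. Groups that do not overlap are thus a description of these arrays. The difference among normal tissues passed limma's moderated F test (adjusted p = 2.93e-07, Benjamini-Hochberg over all genes, as everywhere here), as it did for 79.4% of all genes tested.

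Rbl1 spanned less of a range among the normal tissues, from -1.01 ± 0.16 (SD, n = 4) in prostate through -0.70 ± 0.35 in lung and -0.68 ± 0.24 in mammary gland to -0.47 ± 0.14 in seminal vesicle. Each neighbour in that order overlapped the next. The limma F test among normal tissues gave an adjusted p of 0.00218 for Rbl1.

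Among the tumors the order of Rbl1 was -0.07 ± 0.09 (SD, n = 6) in seminal vesicle, 0.16 ± 0.05 (n = 5) in prostate, 0.59 ± 0.12 (n = 4) in mammary gland and 1.10 ± 0.11 (n = 4) in lung. No 2 of these 4 groups overlapped. Rb1 had means of -0.18 ± 0.11 (n = 6) in seminal vesicle tumors, 0.58 ± 0.10 (n = 4) in lung tumors, 1.02 ± 0.51 (n = 5) in prostate tumors and 1.03 ± 0.13 (n = 4) in mammary tumors. The prostate tumors overlapped both the lung and the mammary tumors, and the other groups did not overlap. Both genes differed among the tumors by the limma F test (adjusted p = 1.14e-08 for Rb1 and 4.28e-10 for Rbl1), as did 76.6% of all genes.

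**Figure D1:**
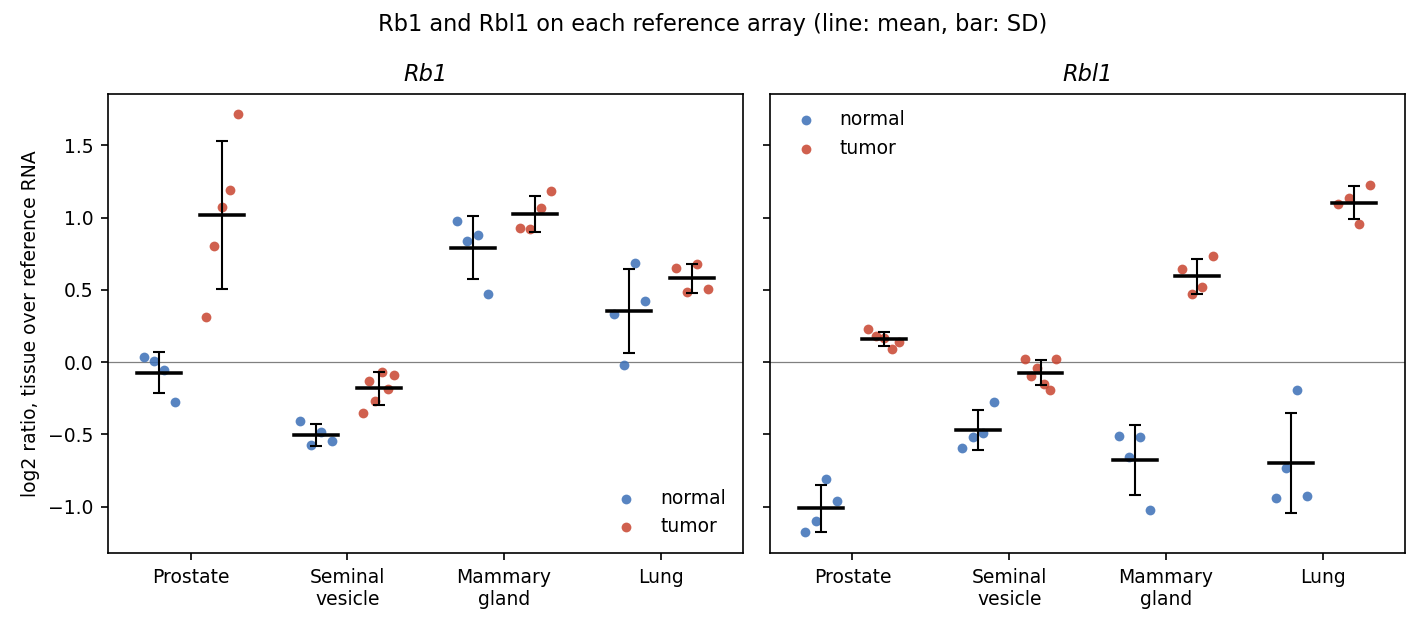
Log2 ratio of tissue over reference RNA (y axis) for Rb1 and Rbl1 at 4 sites (x axis), with 1 point per array, the group mean as a line and the SD as a bar. Tumor arrays of Rbl1 lie above all normal arrays of their site at all 4 sites, and those of Rb1 do so in prostate and seminal vesicle. The share of all genes so separated is not given.

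Rbl1 rose at all 4 sites, by 1.17 log2 units in prostate, 0.40 in seminal vesicle, 1.27 in mammary gland and 1.80 in lung. Rb1 passed the test in prostate, with a rise of 1.09, and not at the other 3 sites. A pass for 1 gene alone does not show that the 2 genes differ. Tested on the same array (below), the genes differed in this change by 0.08 in prostate and 0.07 in seminal vesicle. They differed by 1.04 in mammary gland and 1.58 in lung, and no site passed after adjustment. With 4 against 4 arrays, mammary gland and lung could not have passed, given the p-values of the other sites. The adjusted test thus cannot decide whether the genes differ there. In prostate, Rbl1 read -1.18, -1.10, -0.81 and -0.96 on the 4 normal arrays and 0.23, 0.18, 0.17, 0.09 and 0.14 on the 5 tumor arrays. The tumor arrays, with an SD of 0.05, all lay above every normal array. The rise was 1.17 ± 0.12 (SE), or 2.25-fold, with a limma adjusted p of 2.47e-10, at a site where 61.4% of all genes passed.

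Rb1 in prostate read 0.03, 0.01, -0.05 and -0.28 on the normal arrays and 0.31, 0.80, 1.08, 1.19 and 1.71 on the tumor arrays. All 5 tumor arrays lay above all 4 normal arrays, and they were spread more widely than those of Rbl1. Rb1 rose by 1.09 ± 0.16 (SE), or 2.13-fold (limma adjusted p = 5.63e-07). Arrays fall into blocks of neighbouring numbers in the submitters' array database. The only block with both prostate groups held 3 normal arrays and 1 tumor array, array 5, which read highest of the 5 for Rb1. Within it the difference was 1.72 for Rb1 and 1.17 for Rbl1. The 4 tumor arrays outside it ran from 0.31 to 1.19 for Rb1. With a single tumor array, this gives values and no tumor spread of its own.

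The make-up of the prostate groups changed along with both genes. The mean log2 ratio of 13 skeletal muscle genes ran from 3.65 to 4.59 on the normal prostate arrays and from -0.13 to 0.17 on the prostate tumor arrays, and 13 of 13 fell. All 9 adipocyte genes and all 6 epithelial genes fell too, and all 5 neuroendocrine genes rose, to a mean of 2.43. The smooth muscle genes Tpm2 (-4.84), Des (-3.89), Myl9 (-2.30), Tagln (-2.27), Acta2 (-1.60) and Myh11 (-1.06) fell, while Cnn1 rose (1.76). Of the endothelial genes Tek, Tie1, Flt1, Eng and Egfl7 fell, and Cdh5 and Kdr did not pass. At this site 32.2% of all genes fell and 29.2% rose. Of the prostate secretory genes Azgp1 and Spink1 were the measured ones, and neither exceeded, in normal prostate, its mean over the remaining normal groups, and markers of seminal vesicle were not analysed here. The part of these shifts in the values of Rb1 and Rbl1 was not tested, and in bulk tissue fewer cells of a type cannot be told apart from less RNA per cell.

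In lung, Rbl1 read -0.94, -0.73, -0.20 and -0.93 on the normal arrays and 1.10, 1.14, 0.95 and 1.23 on the tumor arrays. The lowest tumor array stood more than 1 log2 unit above the highest normal array. The rise was 1.80 ± 0.12 (SE), or 3.49-fold, with a limma adjusted p of 5.5e-13. It ranked 42 by size of rise and 10 by p among 6774 genes, of which 36.5% passed.

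Rb1 in lung read 0.33, -0.02, 0.68 and 0.42 on the normal arrays and 0.65, 0.48, 0.68 and 0.51 on the tumor arrays. The groups overlapped, and the difference of 0.23 ± 0.17 (SE) did not pass (limma adjusted p = 0.312; 95% interval -0.12 to 0.57). All 7 endothelial genes and 5 of 6 T cell genes fell in lung tumors while 5 of 6 epithelial genes rose. At this site 20.4% of all genes fell and 16.2% rose. The part of these marker changes in the values of the 2 genes was not tested.

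In mammary gland, Rbl1 read -0.51, -0.66, -0.52 and -1.02 on the normal arrays and 0.64, 0.47, 0.52 and 0.74 on the tumor arrays. The groups were clear of each other. The rise was 1.27 ± 0.12 (SE), or 2.41-fold (limma adjusted p = 6.82e-10), and it ranked 121 by size among 6771 genes, of which 36.7% passed.

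Rb1 in mammary gland read 0.97, 0.84, 0.88 and 0.47 on the normal arrays and 0.93, 0.92, 1.07 and 1.19 on the tumor arrays. Both groups were among the higher Rb1 levels of the series, and 2 of the 4 tumor arrays lay above all normal arrays. The difference was 0.23 ± 0.17 (SE; limma adjusted p = 0.301; 95% interval -0.11 to 0.58), and after quantile normalization between arrays it was 0.41 and passed (adjusted p = 0.0342). All 9 adipocyte genes fell in these tumors, from a mean of 3.63 to 1.22, as did 6 of 7 endothelial genes (from 1.29 to 0.38), 4 of 6 T cell genes, 5 of 6 milk and luminal genes and 3 of 7 smooth muscle genes, while 3 of 6 epithelial genes rose. At this site 20.1% of all genes fell and 16.6% rose. The part of these marker changes in the 2 genes was not tested.

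Within the block of database numbers holding 3 normal and 3 tumor arrays of each of these FVB sites, Rbl1 rose by 1.77 in lung (limma adjusted p = 1.22e-06) and by 1.11 in mammary gland (adjusted p = 5.68e-05). Rb1 differed there by 0.19 (adjusted p = 0.345) and 0.08 (adjusted p = 0.729). Over all arrays the rises of Rbl1 were 1.80 and 1.27.

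The seminal vesicle showed the smallest change of Rbl1. The gene read -0.60, -0.52, -0.49 and -0.27 on the normal arrays, and the 6 tumor arrays ran from -0.19 to 0.02. The groups did not overlap, and the rise of 0.40 ± 0.11 (SE), or 1.32-fold, passed (limma adjusted p = 0.00511) at a site where 43.5% of all genes passed. It did not pass after quantile normalization (0.24, adjusted p = 0.131), nor with number blocks as a factor (0.73, adjusted p = 0.0763). The latter value rests on blocks tied through arrays of other sites, because the normal and tumor arrays of this site shared no block. It is thus no check of the rise at this site.

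Rb1 in seminal vesicle read -0.41, -0.58, -0.49 and -0.55 on the normal arrays and from -0.35 to -0.07 on the 6 tumor arrays. These groups did not overlap either. The difference was 0.32 ± 0.15 (SE), which did not pass in the fit over all 8 tissue groups (limma adjusted p = 0.0916) but passed in a fit of the seminal vesicle arrays alone (adjusted p = 0.0063). Normal and tumor arrays of this site shared no number block, so no value within a block could be had.

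**Figure D2:**
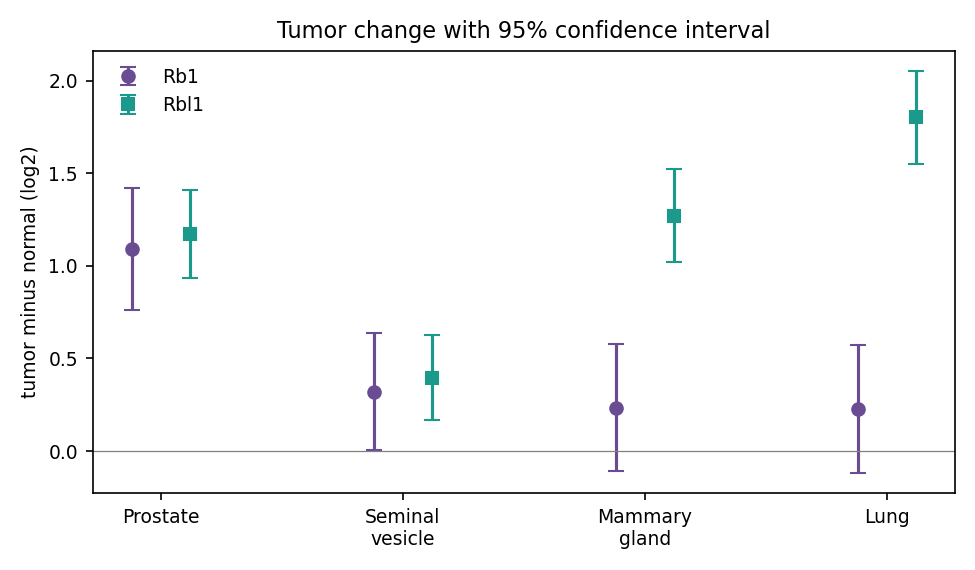
Tumor minus normal difference of the mean log2 ratio (y axis) for Rb1 and Rbl1 at 4 sites (x axis), with bars for the 95% confidence interval of the limma fit. Rbl1 rises at every site and most in lung (1.80), and Rb1 passes the test in prostate (1.09).

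The tumor change of Rbl1 was smallest in seminal vesicle and largest in lung, with tests of each difference between sites. The rise in lung exceeded that in seminal vesicle by 1.41 ± 0.17 (SE; limma adjusted p = 9.93e-08; 35.4% of all genes passed this contrast), that in prostate by 0.63 ± 0.17 (adjusted p = 0.00323; 41.2%) and that in mammary gland by 0.53 ± 0.17 (adjusted p = 0.0239; 24.2%). The seminal vesicle rise was below that in mammary gland by 0.87 ± 0.17 (adjusted p = 0.000111; 42.0%) and below that in prostate by 0.78 ± 0.16 (adjusted p = 0.000185; 46.7%). The prostate and mammary rises of Rbl1 differed by -0.10 ± 0.17 (adjusted p = 0.667; 47.9%), which was -0.46 and passed after quantile normalization (adjusted p = 0.0339), and was 0.0633 with number blocks as a factor. With number blocks as a factor the differences of prostate from lung (adjusted p = 0.0502) and of seminal vesicle from prostate (0.186) and mammary gland (0.412) did not pass. For seminal vesicle this fit cannot check the site's own change, because its normal and tumor arrays shared no block. The difference of mammary gland from lung did not pass without any 1 of 5 arrays (normal mammary arrays 1 or 3, normal lung arrays 1 or 4, or tumor lung array 4), with adjusted p-values from 0.0509 to 0.0645.

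For Rb1 the prostate stood apart. Its rise there exceeded the difference in seminal vesicle by 0.77 ± 0.22 (SE; limma adjusted p = 0.00488), in mammary gland by 0.86 ± 0.23 (adjusted p = 0.00307) and in lung by 0.87 ± 0.23 (adjusted p = 0.00322). The other 3 sites differed from each other by 0.10 or less, with adjusted p-values of at least 0.778. The tumor change differed among the 4 sites by the F test for Rb1 (adjusted p = 0.00258) and Rbl1 (1.63e-07), as for 74.2% of all genes. With number blocks as a factor the prostate rise of Rb1 exceeded the seminal vesicle difference by 0.44 (adjusted p = 0.418). That value too rests on arrays of other sites for the seminal vesicle part.

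The difference Rbl1 minus Rb1 on the same array is free of any offset that shifts a whole array. In mammary gland it went from -1.47 ± 0.05 (SD, n = 4) in normal tissue to -0.43 ± 0.11 (n = 4) in tumors, and in lung from -1.05 ± 0.31 (n = 4) to 0.52 ± 0.20 (n = 4). Each increase, 1.04 and 1.58, gave an exact two-sided permutation p of 0.0286, the smallest that 4 against 4 arrays can give, and 0.0571 after adjustment over the 4 sites. Given the p-values of the other sites, that adjusted value could not have been lower. In prostate the difference moved by 0.08 (exact permutation p = 0.8095) and in seminal vesicle by 0.07 (exact permutation p = 0.5143). The tumor arrays of both FVB sites lay above all normal arrays of their site, and the groups overlapped at the C57BL/6 sites.

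**Figure D3:**
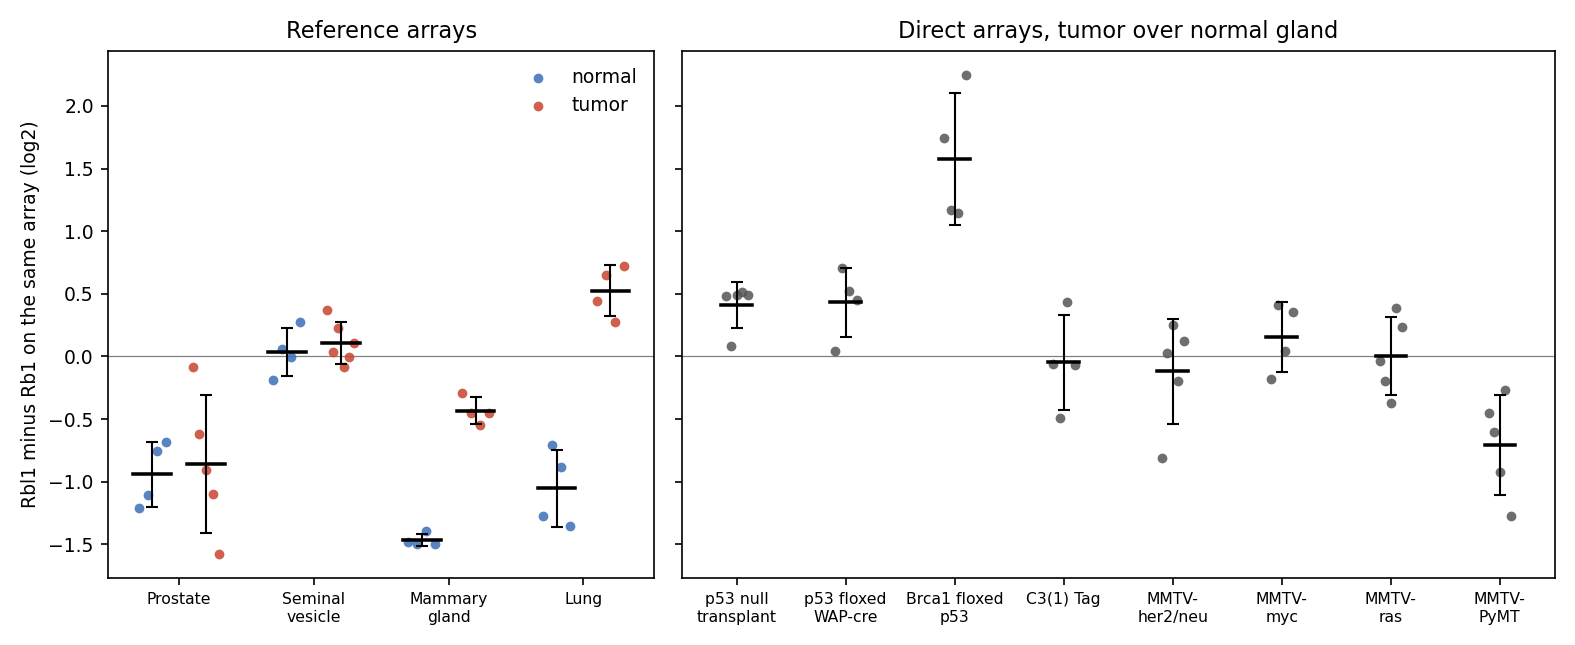
Rbl1 minus Rb1 on the same array (y axis, log2) for the tissue groups of the 35 reference arrays (left) and the 8 models of the direct arrays (right), with 1 point per array, means as lines and SD as bars. The tumor arrays of mammary gland and lung lie above their normal arrays, and the Brca1 model stands highest among the models with a mean of 1.58.

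The mammary models measured directly against normal gland separated the 2 genes in another way. Rb1 fell in the Brca1 model, to 2.17-fold below normal gland, and Rbl1 rose in it, while in the C3(1) antigen model both were above normal gland by about the same amount. In the Brca1 model Rb1 read -1.53, -0.96, -0.70 and -1.28 on arrays 2 to 5. The fall of 1.12 ± 0.20 (SE, n = 4) had a limma adjusted p of 2.06e-05, in a model where 46.9% of all genes passed. No array of another model read as low as these 4. In the same model all 9 adipocyte genes fell, with a mean of -3.41 against -2.78 in p53fp/fp and -2.21 to -1.70 in the other 6 models, and all 13 skeletal muscle genes fell. There 12.1% of all genes fell. Some adipocyte genes lacked a value on some direct arrays, so their means do not rest on the same genes in every model. The part of these falls in that of Rb1 was not tested.

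Rbl1 in the Brca1 model read 0.98, 0.22, 0.21, 0.45 and 0.97, above 0 on all 5 arrays. The rise was 0.57 ± 0.17 (SE; limma adjusted p = 0.00669), against a median of 0.24 over all genes in this model. With each array centred on its own median the change of Rbl1 was 0.38 (adjusted p = 0.0375) and that of Rb1 was -1.29 (adjusted p = 1.79e-08). The rise of Rbl1 did not pass without array 1 (0.46, adjusted p = 0.0501) or after quantile normalization (0.36, adjusted p = 0.0565). The feature for Brca1, a gene targeted in this model, read 1.24 ± 0.22 (SE; adjusted p = 2.69e-05) above normal gland. Where this cDNA lies relative to the deleted part is not given in the sources used here, so it checks nothing, and Trp53 was not analysed here.

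In the C3(1)/SV40 T/t-antigen model Rb1 read 0.35, 1.01, 0.25, 0.32 and 1.32, and Rbl1 read 0.96, -0.24, 0.76 and 1.25 on arrays 2 to 5. Both genes rose, by 0.65 ± 0.18 (SE; limma adjusted p = 0.00294) and 0.68 ± 0.19 (adjusted p = 0.00388), where 46.2% of all genes passed. The median of all genes in this model was itself 0.36 above normal gland, and array 5, the highest for both genes, had an array median of 0.66. With arrays centred, the changes were 0.32 for Rb1 (adjusted p = 0.056) and 0.33 for Rbl1 (adjusted p = 0.111), and neither passed. Without array 5 the change of Rbl1 was 0.49 (adjusted p = 0.0754). The mammary tumors on the reference arrays are of this model too. There Rbl1 rose by 1.27, more than here, and Rb1 differed by 0.23 without passing.

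In both p53 models Rb1 was, as deposited, below normal gland on every array without passing the test. With arrays centred, p53fp/fp array 3 read 0.0188 and the other 8 arrays stayed below 0. The 5 arrays of the p53-/- transplants ran from -0.60 to -0.22, with a mean of -0.40 ± 0.18 (SE; limma adjusted p = 0.137; 14.4% of all genes passed), which passed after quantile normalization (-0.35, adjusted p = 0.0219) or in a fit of this model alone (adjusted p = 0.0264). The 4 arrays of p53fp/fp;WAP-cre read -0.53, -0.69, -0.15 and -0.61, with a mean of -0.49 ± 0.20 (SE; adjusted p = 0.0679; 22.7% passed). Rbl1 had means of 0.015 ± 0.17 (SE) in the former (adjusted p = 0.971) and -0.06 ± 0.19 in the latter (adjusted p = 0.852), with arrays on both sides of 0.

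In the 4 MMTV oncogene models neither gene passed the test. Rb1 had means of 0.00 ± 0.18 (SE) in MMTV-her2/neu (limma adjusted p = 0.997; 17.5% of all genes passed), 0.25 ± 0.20 in MMTV-myc (adjusted p = 0.402; 23.5%), -0.14 ± 0.18 in MMTV-ras (adjusted p = 0.623; 20.2%) and 0.45 ± 0.18 in MMTV-PyMT (adjusted p = 0.0647; 21.2%). The PyMT arrays of Rb1 ran from -0.15 to 1.44, and with arrays centred all 5 lay above 0 (0.48, adjusted p = 0.00674). It also passed after quantile normalization (0.55, adjusted p = 0.000617), without array 2 (0.60, adjusted p = 0.0241) and in a fit of this model alone (adjusted p = 0.046). Rbl1 had means of -0.12 ± 0.17 in MMTV-her2/neu (adjusted p = 0.68), 0.40 ± 0.19 in MMTV-myc (0.124), -0.14 ± 0.17 in MMTV-ras (0.619) and -0.25 ± 0.17 in MMTV-PyMT (0.297). With arrays centred, Rb1 was 0.0256 in myc and -0.32 in ras (adjusted p = 0.923 and 0.0929), and Rbl1 was 0.18 and -0.32 (adjusted p = 0.454 and 0.136), so the myc values came closer to 0 and the ras values lay further below it.

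**Figure D4:**
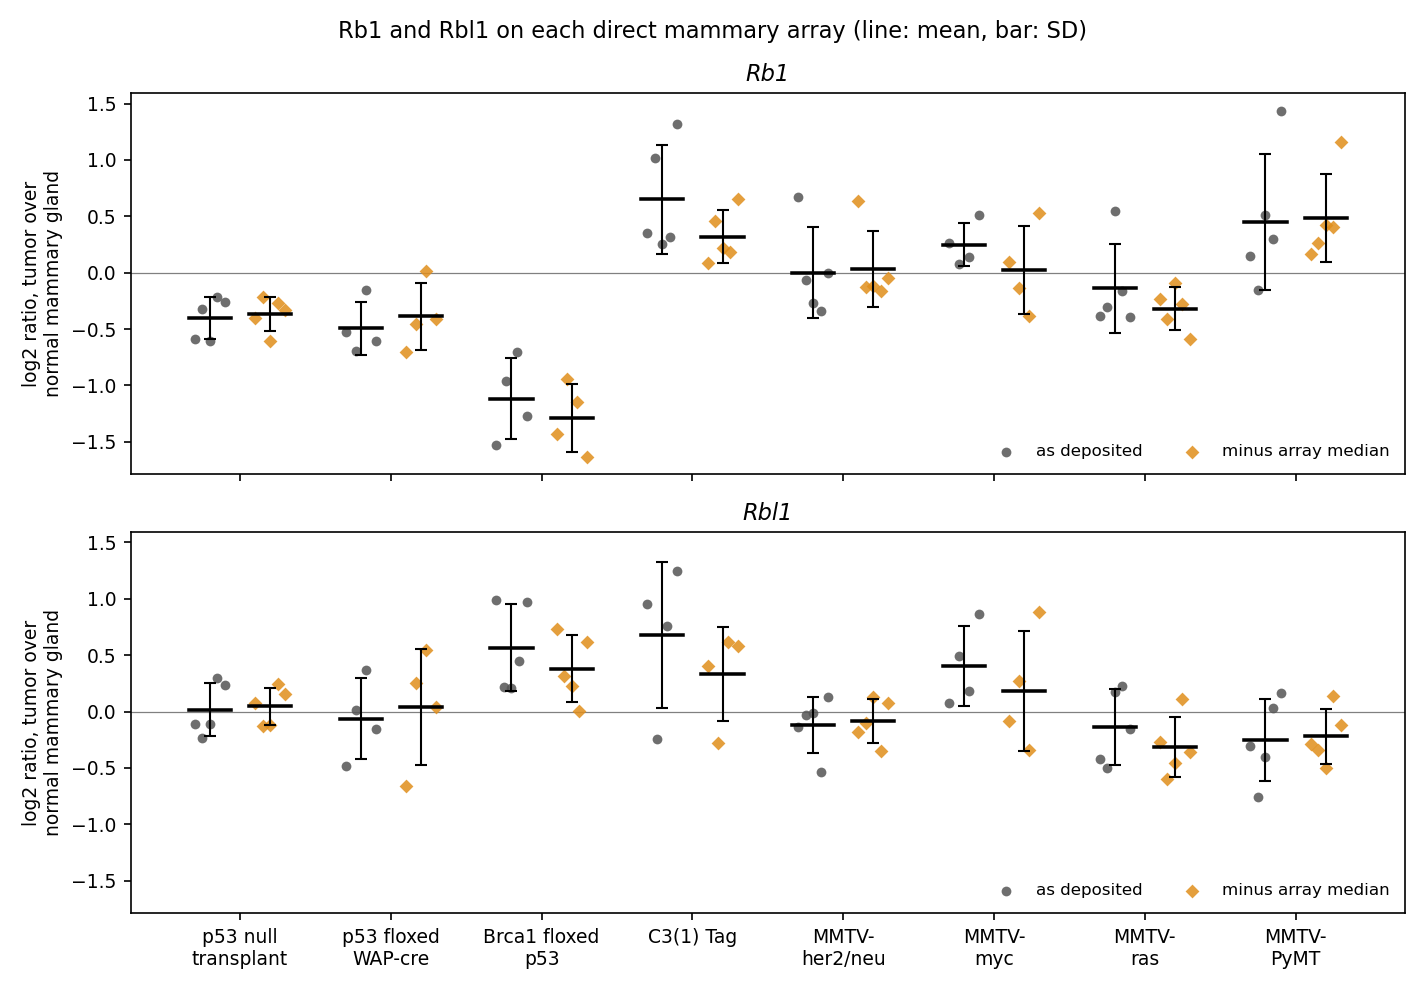
Log2 ratio of mammary tumor over normal gland (y axis) for Rb1 and Rbl1 on each direct array of 8 models (x axis), as deposited and with the array's median subtracted, with means as lines and SD as bars. Rb1 is lowest in the Brca1 model at -1.12 (as deposited), and both genes in the C3(1) model move from 0.65 and 0.68 to 0.32 and 0.33 when arrays are centred.

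Contrasts between models were then tested, first for Rb1. In the p53 and Brca1 models its mean was 0.81 ± 0.14 (SE) below that in the MMTV models, a difference of -0.81 (limma adjusted p = 8.04e-05; 20.4% of all genes passed) that was -0.74 with arrays centred. It was 1.32 ± 0.21 higher in the C3(1) model than in the p53 and Brca1 models (adjusted p = 2.3e-05; 27.6%), or 1.00 with arrays centred, and 0.51 ± 0.20 higher than in the MMTV models (adjusted p = 0.0689; 17.6%). The latter was 0.26 with arrays centred (adjusted p = 0.271), where the median of all genes was 0.0121. That median was 0.26 as deposited. As deposited the Rb1 difference from the MMTV models ran from 0.34 to 0.61 when 1 array was left out. It passed without C3(1) array 3, her2/neu array 1, ras array 3 or PyMT array 5 (adjusted p-values from 0.0238 to 0.0451). The mean of 13 skeletal muscle genes was -3.16, -3.17 and -4.03 in the p53-/-, p53fp/fp and Brca1 models and from -2.38 to -2.07 in the 5 FVB models, and the part of this in the contrast was not tested. The p53 and Brca1 arrays lay in blocks 4 and 5 of database numbers and the FVB arrays in blocks 1, 2, 3 and 6, so block, strain and model group cannot be told apart here.

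Rbl1 was higher in the C3(1) model than in the MMTV models by 0.71 ± 0.21 (SE; limma adjusted p = 0.0183), which did not pass with arrays centred (0.44, adjusted p = 0.119), nor without C3(1) array 2 (0.61, 0.106) or array 5 (0.52, 0.174). Against the p53 and Brca1 models it was 0.51 ± 0.22 higher (adjusted p = 0.077), against 0.32 for the median of all genes, and 0.18 with arrays centred (adjusted p = 0.54). As deposited it ran from 0.32 to 0.81 when 1 array was left out, and passed without C3(1) array 3 (adjusted p = 0.00556). The p53 and Brca1 models differed from the MMTV models by 0.20 ± 0.14 in Rbl1 (adjusted p = 0.319). The F test among all 8 models passed for Rb1 (adjusted p = 6.55e-05) and Rbl1 (0.0107), as for 42.4% of all genes, but for Rbl1 it did not pass with arrays centred (0.0654) or after quantile normalization (0.0922). Among the FVB arrays of the largest number block, 5 each of C3(1), her2/neu and PyMT and 4 of ras, the F test gave adjusted p-values of 0.0455 for Rb1 and 0.0376 for Rbl1.

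On the same array, Rbl1 minus Rb1 was above 0 on 13 of 13 arrays of the p53 and Brca1 models and on 8 of 19 arrays of the MMTV models. Their means were 0.78 ± 0.64 (SD, n = 13) and -0.18 ± 0.47 (SD, n = 19). This comparison was chosen after the values were seen and is given as a description. Without the Brca1 model the first mean was 0.42 ± 0.21 (SD, n = 9), and without PyMT the second was 0.0034 ± 0.34 (SD, n = 14). The Brca1 model read highest, 1.58 ± 0.53 (SD, n = 4), and PyMT lowest, -0.71 ± 0.40 (n = 5). In the C3(1) model the mean of Rbl1 minus Rb1 was -0.05 ± 0.38 (SD, n = 4) on the direct arrays. On the reference arrays it was 1.04 higher in mammary tumors of that model than in normal gland. The 2 array sets thus did not give the same result for this model. Centring an array leaves Rbl1 minus Rb1 as it is.

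Of the genes upstream of the pocket proteins, those that phosphorylate them moved in different directions. Ccna2, which encodes cyclin A and is itself made in cycling cells, rose at all 4 sites, by 4.06, 1.13, 2.77 and 3.26 in prostate, seminal vesicle, mammary gland and lung, without passing in seminal vesicle after quantile normalization (0.63). Cdk4, the kinase of D-type cyclins, rose in prostate (2.19), seminal vesicle (0.83) and lung (0.83), with 0.07 in mammary gland. Ccnd1 and Ccnd2, which encode its D-type cyclin partners, fell in prostate (-1.25 and -1.41) and lung (-1.69 and -1.29), and Ccnd2 also fell in mammary gland (-1.77). In seminal vesicle Ccnd1 rose (1.22). The direct models read otherwise: as deposited Cdk4 rose in all 8, by 1.12 to 2.96, including 1.68 in the C3(1) model, and Ccnd1 rose in the 7 others, by 0.80 to 2.23, with -0.12 in C3(1). With dyes fixed, a dye effect of either gene cannot be told apart from these rises. Ccnd2 read 0.48 in C3(1) without passing. With arrays centred Cdk4 did not pass in myc (1.05), nor in the Brca1 model after quantile normalization (0.70). Of the 6 cyclin and kinase genes measured, 4 rose and 2 fell in prostate, 4 rose and 0 fell in seminal vesicle, 2 rose and 1 fell in mammary gland, and 2 rose and 3 fell in lung, at medians of 0.89, 0.66, 0.22 and -0.33. Of all genes, 29.2%, 23.3%, 16.6% and 16.2% rose and 32.2%, 20.2%, 20.1% and 20.4% fell at these sites. After quantile normalization 1 of the 6 rose and 1 fell in seminal vesicle.

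Among 4 kinase inhibitors, 2 rose in prostate, 3 in seminal vesicle, and 1 rose and 1 fell in mammary gland and in lung. Of all genes, 29.2%, 23.3%, 16.6% and 16.2% rose at the sites in that order, and 32.2%, 20.2%, 20.1% and 20.4% fell. The mammary and lung counts were thus near the shares of all genes. Cdkn1a, the p53 target that encodes p21, rose in prostate (0.66), seminal vesicle (0.76) and mammary gland (0.80) and fell in lung (-0.96), and in prostate it did not pass after quantile normalization (0.50). Cdkn2d, an inhibitor of CDK4 and CDK6, rose in prostate (1.28) and seminal vesicle (0.36), Cdkn2b, which encodes p15, rose in seminal vesicle (0.45) and lung (0.44), and Cdkn1c, which encodes p57, fell in mammary gland (-0.78). Of the 4 E2F and DP factors measured, E2f5, a partner of p107, rose in prostate (0.54) and mammary gland (0.35), and E2f6 and Tfdp2 rose in prostate, by 0.42 and 0.22. E2f3, an activating E2F, fell in seminal vesicle (-0.57), and none of the 4 passed in lung. Lin54, a DNA-binding subunit of DREAM, rose in prostate (1.31), mammary gland (1.55) and lung (1.14) and fell in seminal vesicle (-0.52). After quantile normalization the seminal vesicle calls of these kinase inhibitors, of E2f3 and of Lin54 did not hold.

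Of 9 genes for proteins that bind the retinoblastoma protein or act as its corepressors, 8 rose in prostate, 7 in seminal vesicle, 2 in mammary gland and 4 in lung, against 29.2%, 23.3%, 16.6% and 16.2% of all genes, so the mammary count was near that of all genes. Sin3a fell in prostate (-0.60). Rbbp6, which encodes an Rb-binding ubiquitin ligase, rose at every site, by 2.32, 1.05, 1.09 and 1.06. Hdac1, a histone deacetylase recruited by the retinoblastoma protein, rose in prostate (1.05) and seminal vesicle (0.91), with 0.00 in mammary gland and 0.24 in lung. Of the 3 catalytic subunits of protein phosphatase PP1, which removes phosphate from the retinoblastoma protein, Ppp1ca rose in prostate (0.77) and lung (0.47). Ppp1cc rose in prostate (0.50) and mammary gland (0.32) and fell in seminal vesicle (-0.51), a call that did not hold after quantile normalization, and Ppp1cb did not pass at any of the 4 sites.

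Downstream, genes known as E2F targets in DNA replication rose at all 4 sites along with Rbl1. The list holds Brca1 and does not hold Rbl1. Of 27 measured, 27 rose in prostate, 24 in seminal vesicle, 23 in mammary gland and 27 in lung, where 29.2%, 23.3%, 16.6% and 16.2% of all genes rose. Their median changes were 2.06, 0.93, 1.43 and 1.40 log2 units against -0.03, 0.04, -0.02 and -0.06 over all genes. The 1 that fell was Cdc45, a replication initiation factor, in seminal vesicle (-0.31). Cases with the smallest p were Top2a, the DNA topoisomerase, in prostate (3.71) and lung (3.02), Mcm5, a subunit of the replicative helicase, in prostate (3.19) and seminal vesicle (1.77), and Pola1, the polymerase that starts DNA strands, in mammary gland (2.57). After quantile normalization 18 of the 27 rose in seminal vesicle.

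Among the direct models these targets rose most often in the Brca1 and C3(1) models, where Rbl1 also passed as deposited. As deposited, 19 of 22 measured rose in the Brca1 model (median 1.32), where 34.9% of all genes rose (median 0.24), and 20 in the C3(1) model (median 1.47), where 41.8% did (median 0.36). With arrays centred, 18 rose in each, at medians of 1.14 and 1.13, against 26.2% and 22.4% of all genes. The p53 models had 5 in p53-/- (5.96% of all genes) and 9 in p53fp/fp (11.5%), and 5 (9.66%) and 15 (18.0%) with arrays centred. The MMTV models had 1 in her2/neu (9.38%), 8 in myc (20.8%), 5 in ras (17.2%) and 1 in PyMT (12.7%), so the counts in her2/neu and PyMT were below and that in ras near the share of all genes. With arrays centred these counts were 2, 4, 2 and 4, where 15.0%, 12.2%, 9.97% and 18.3% of all genes rose. Of all genes called, the share that rose went from 90.6% to 53.5% in C3(1) with centring, from 74.3% to 55.3% in the Brca1 model, from 88.4% to about the centred C3(1) share in myc, from 85.2% to 52.8% in ras and from 50.5% to 61.9% in p53fp/fp. Cdk1, the mitotic kinase, had the smallest p in the Brca1 model (2.66) and Mcm3, a helicase subunit, in the C3(1) model (2.59).

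Across the 35 reference arrays the mean of the 27 targets had a Pearson r of 0.85 with Rbl1 and 0.67 with Rb1. With each group's mean removed these were 0.43 and 0.38. Across the 37 direct arrays with a value, where 22 of the targets were measured, r was 0.78 with Rbl1 and 0.19 with Rb1, and 0.63 and 0.56 with model means removed. These describe arrays that share groups, and the direct arrays also share array-wide offsets that were not removed.

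**Figure D5:**
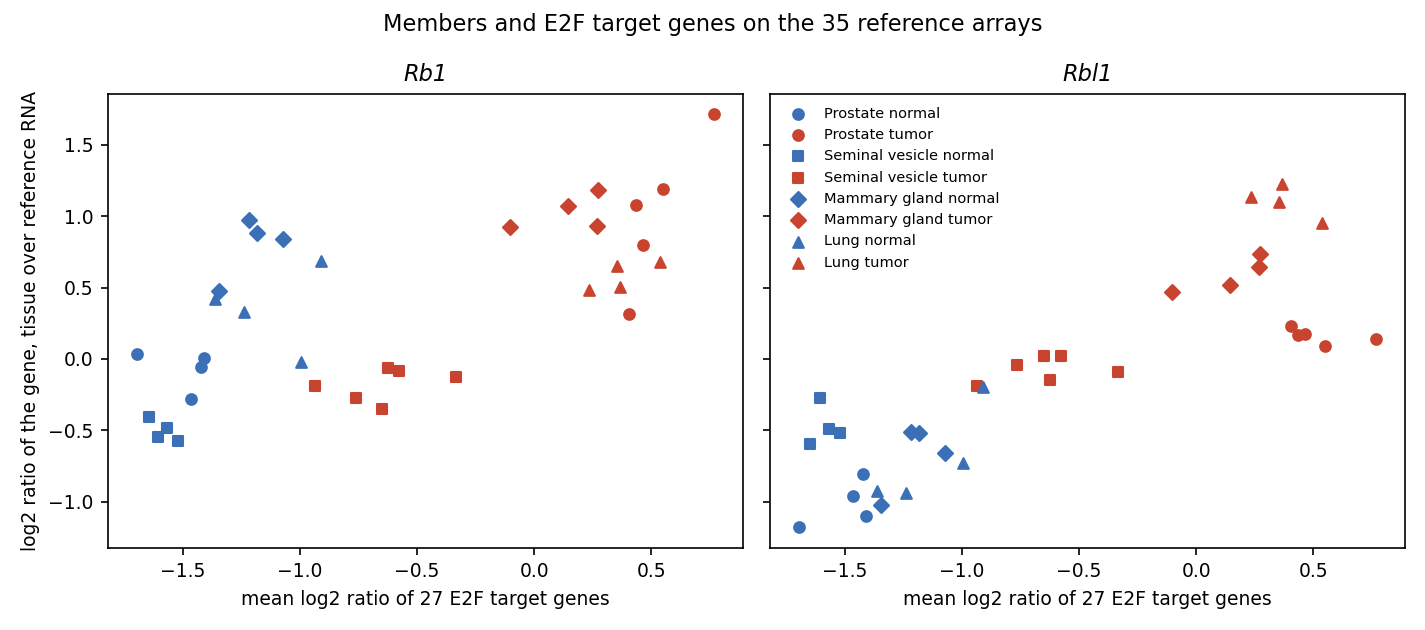
Log2 ratio of Rb1 and of Rbl1 (y axes) against the mean log2 ratio of 27 E2F target genes (x axis) on the 35 reference arrays, with 1 point per array, colour for normal or tumor and shape for site. Rbl1 rises with the targets over the groups, whereas normal mammary gland holds Rb1 ratios from 0.47 to 0.97 at low target means.

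The genes most like each member were ranked by Pearson r over the 35 reference arrays. For Rbl1 they were Hat1, a histone acetyltransferase of new histones (r = 0.95), Slbp, the histone mRNA binding protein (0.94), Lta, the cytokine lymphotoxin (0.92), Gmnn, the replication inhibitor geminin (0.92), and Anln, the cytokinesis protein anillin (0.91), among 6235 genes ranked. On the direct arrays their r with Rbl1 lay between 0.57 and 0.76. For Rb1 they were Ralgds (0.87), Ddhd1 (0.87), Cyrib (0.87), Pds5b, a cohesin regulator (0.86), and Psma4, a proteasome subunit (0.86). On the direct arrays their r with Rb1 ran from -0.05 for Cyrib to 0.70 for Pds5b.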

How the data were processed

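RNA was measured on 73 2-colour cDNA arrays of 9596 features, 35 against a reference RNA and 38 tumor against normal, with dyes fixed and none swapped. The authors deposited 1 log2 ratio per feature and array. Base and direction are not stated. Read as log2, the interaction rule of the series text gave 2638 features, the number it states, and 3770 as natural logarithms. All 6 lung and all 9 adipocyte genes measured were higher in their own normal tissue. Image analysis and background correction are not given in the sources used here. Reference arrays had medians near 0, direct arrays from -0.42 to 0.66. Intensities were not used, and the number of arrays limits the precision.

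Features with 1 symbol (7486) were averaged per gene, giving 6777 genes on reference and 5768 on direct arrays. Fits used limma 3.58.1 (R 4.3.3) over 8 tissue groups or 8 models, for genes with at least 3 values a group. The threshold was 0.05 on p-values adjusted by Benjamini and Hochberg over all genes. The code was tested on simulated data. Permutation tests used scipy 1.17.1. Number blocks are runs of the submitters' array database numbers, a new one starting at a gap over 20 (reference) or 300 (direct). The 2 genes and all lists were chosen with earlier results of these data known. Genes named besides them were any in lists of up to 10, the 3 with the smallest p in the target list, the 5 most correlated and the 2 nearest measured on either side of each. Of that target rule, Cdc45 was named after its value was seen. Alternatives were centring, quantile normalization, single features, complete genes, left-out arrays, number blocks and smaller fits.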

Additional observations from a re-analysis of the deposited data

Results flagged for a closer look

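1 array stood apart within its group: Rb1 read 0.54 on MMTV-ras array 3, above the other 4, which lay between -0.39 and -0.16. Of 32 groups checked this was the only such array, and chance gives about 1 in 20. It was the only ras array outside the number block of the other 4, and its array median was 0.63. With medians subtracted it read -0.09.

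The tumor change differed between sites, by a test of the difference itself, for Rb1 between prostate and seminal vesicle (0.77), mammary gland (0.86) and lung (0.87). For Rbl1 it differed between prostate and seminal vesicle (0.78) and between prostate and lung (-0.63), between seminal vesicle and mammary gland (-0.87) and lung (-1.41), and between mammary gland and lung (-0.53). Between 24.2% and 47.9% of all genes passed these contrasts. Those of prostate with seminal vesicle, and for Rbl1 prostate with lung and seminal vesicle with mammary gland, did not pass with number blocks. Rbl1 mammary minus lung did not pass without each of 5 arrays in turn. Among the direct models, Rbl1 differed between the C3(1) and MMTV models (0.71), and Rb1 between the p53 and Brca1 and the MMTV models (-0.81) and between the C3(1) and the p53 and Brca1 models (1.32). Of all genes, 17.6%, 20.4% and 27.6% passed these contrasts in that order. The Rbl1 difference did not pass with arrays centred.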

How the results depend on the processing

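The rises of Rbl1 in prostate, mammary gland and lung and of Rb1 in prostate passed under every alternative run on the reference arrays. The prostate fit of block 1 is left aside here, as it held 1 tumor array. With arrays centred, these did not pass: Rb1 and Rbl1 in the C3(1) model (0.32 and 0.33), Rbl1 in the C3(1) against the MMTV models (0.44) and among all models (limma adjusted p = 0.0654). Rb1 in PyMT passed (0.48), and Rbl1 in p53fp/fp turned to 0.0424. After quantile normalization Rbl1 did not pass in seminal vesicle (0.24), the Brca1 model (0.36), the C3(1) model (0.37), the C3(1) against the MMTV models (0.42) and among all models (limma adjusted p = 0.0922), while Rb1 passed in mammary gland (0.41), p53-/- (-0.35) and PyMT (0.55). Rbl1 prostate minus mammary then passed (-0.46), Rbl1 turned to 0.11 in p53fp/fp and 0.0006 in her2/neu, and the Rb1 difference of seminal vesicle from mammary gland and lung turned to -0.26 and -0.20. The cause was not tested.

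With number blocks as a factor Rbl1 in seminal vesicle did not pass (0.73), and Rbl1 prostate minus mammary and Rb1 mammary minus lung turned to 0.0633 and -0.0233, while Rbl1 prostate minus lung (-0.58), prostate minus seminal vesicle (0.50) and seminal vesicle minus mammary (-0.44) and Rb1 prostate minus seminal vesicle (0.44) did not pass. The seminal vesicle groups shared no block, so their values in this fit rest on arrays of other sites. In block 1 alone the turned values were 0.0604 and -0.11, and Rbl1 prostate minus lung did not pass (-0.61). Fits of fewer arrays gave the same estimates: Rb1 passed in seminal vesicle (0.32), p53-/- (-0.40) and PyMT (0.45), and Rbl1 did not in the Brca1 (0.57) and C3(1) (0.68) models. The replicate block turned Rb1 seminal vesicle minus mammary and minus lung to -0.0207 and -0.0122 and Rbl1 in p53fp/fp to 0.0141, and changed no call. Same-numbered arrays correlated from -0.25 to 0.23 and share only a number.

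Of 22 E2F targets measured, 9 rose in p53-/- after quantile normalization, where 25.7% of all genes rose. In p53fp/fp 15 rose centred and 16 quantile, against 18% and 22.2% of all genes. The counts were 2 and 7 in her2/neu (15% and 26.2% of all genes) and 4 and 7 in PyMT (18.3% and 24.3%). Centred, 4 rose in myc (12.2%) and 2 in ras (9.97%). The her2/neu, PyMT and ras counts were thus near or below the shares of all genes.

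Leaving out 1 array in turn, values ranged as follows. Rb1 ran from 0.34 to 0.61 in C3(1) minus MMTV, 0.20 to 0.60 in PyMT and -0.17 to 0.0863 in her2/neu. Its mammary minus lung ran from -0.10 to 0.13 and its seminal vesicle minus lung from -0.0148 to 0.22. Rbl1 ran from 0.52 to 1.01 in C3(1) minus MMTV, 0.32 to 0.81 in C3(1) minus p53 and Brca1, 0.46 to 0.66 in the Brca1 model and 0.49 to 0.99 in the C3(1) model. It ran from -0.21 to 0.0768 in p53fp/fp and -0.0555 to 0.0779 in p53-/-. Its mammary minus lung ran from -0.70 to -0.45 and its prostate minus mammary from -0.15 to 0.0188. Rbl1 minus Rb1 ran from -0.11 to 0.26 in prostate and -0.0002 to 0.15 in seminal vesicle. The restriction to genes complete on every array gave no value for either gene on the direct arrays, where each lacks 1.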

Other observations

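The measured chromosomal neighbours of Rb1 moved with it in the Brca1 model in part. Lpar6, a lysophosphatidic acid receptor gene that lies within the bounds of Rb1 in RefSeq, read from -1.22 to -0.77 on arrays 1, 3, 4 and 5 and lower still on array 2, and it fell by 1.20 ± 0.16 (SE; limma adjusted p = 2.53e-07). Rcbtb2, the next protein-coding gene on the other side, read -0.78, -1.17, -0.99, -0.16 and 0.07 and fell by 0.60 ± 0.16 (adjusted p = 0.00175). Further out, Itm2b (0.12 ± 0.24, adjusted p = 0.69) and Fndc3a (0.47 ± 0.22, adjusted p = 0.0749) did not pass. Lpar6 also fell in p53fp/fp (-0.52, adjusted p = 0.0341), and in the C3(1) model it read -0.21 (adjusted p = 0.307), or -0.54 with arrays centred, which passed. In mammary tumors on the reference arrays Lpar6 fell (-1.03, limma adjusted p = 7.28e-06), as did Rcbtb2 (-0.49, adjusted p = 0.0417). Fndc3a rose there (0.46, adjusted p = 7.89e-05) and Itm2b read -0.02 (adjusted p = 0.936), while Rb1 differed by 0.23 without passing. In prostate tumors Rcbtb2 rose with Rb1, by 1.42 ± 0.18 (adjusted p = 3.86e-08), whereas Lpar6 fell by 0.76 ± 0.16 (adjusted p = 0.000106).

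Around Rbl1, Samhd1, the adjacent gene for a dNTP hydrolase, fell where Rbl1 rose in prostate (-0.37, limma adjusted p = 0.00011), seminal vesicle (-0.35, 0.00032, and -0.14 without passing after quantile normalization) and lung (-0.35, 0.000953), with -0.17 in mammary gland (0.102). Further along, Src, the tyrosine kinase gene, rose in 7 of 8 direct models, by 0.68 in PyMT to 1.74 in the Brca1 model, with 0.49 in her2/neu (adjusted p = 0.0675). Rpn2, an oligosaccharyltransferase subunit gene, also rose in 7, by 1.01 in PyMT to 1.57 in p53fp/fp, with 0.60 in p53-/-. With arrays centred Src did not pass in C3(1) (0.43). In C3(1) mammary tumors on the reference arrays neither gene rose: Src read -0.12 (limma adjusted p = 0.433) and Rpn2 -0.28 (0.0986). The direct C3(1) arrays gave 0.76 and 1.04 as deposited, so the 2 array sets differed for these genes. Ndrg3 fell in mammary tumors on the reference arrays (-0.86) and in PyMT (-0.59) and rose in prostate (0.52).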
